A study of Mus musculus with 4 samples.

Results

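The genes described here are 10 regulators, receptors and surface proteins of the blood and endothelial lineages, of 21418 protein-coding genes on the mouse autosomes: Gata2, Tal1, Runx1, Lmo2, Kdr, Etv2, Pecam1, Cdh5, Tek and Aplnr. They were listed by name, and the RAD21 sites taken for each were those whose interval lay within 100 kb of the gene body on mm9. This gave 33 of the 15311 sites deposited for embryonic stem cells (ESCs) and 25 of the 11022 deposited for embryoid bodies (EBs), which merged into 40 of 18849 sites. Of these 40 sites, 15 were in the ESC list alone, 7 in the EB list alone and 18 in both. The sites were chosen by the peak calls, and so by the reads, of these RAD21 and IgG libraries, and Aplnr was included because the EB site of highest score lay beside it. Read counts at the sites are therefore a description with no test. At the edge of the distance limit, the farthest site taken lay 91820 bp from Lmo2 with 22 ESC and 5 EB reads. The nearest site left out lay 100575 bp from Pecam1 with 32 and 18 reads.

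RAD21 is the cleavable subunit of the cohesin ring. Its binding was measured by ChIP-seq in the mouse ESC line R1/E, to which a bacterial artificial chromosome with GFP-tagged Rad21 had been added, and in EBs grown from that line for 12 days. EBs are aggregates in which ESCs differentiate into a mixture of cell types, so fewer cells of a type with RAD21 at a site and less RAD21 there in every cell cannot be told apart. Each of the 4 groups was a single library: RAD21-GFP precipitated with anti-GFP in ESCs (day 0) and in EBs (day 12), and a goat IgG control of each. All cells, controls included, descended from a drug-selected and GFP-sorted tagged population that carried the transgene beside its own Rad21. Autosomal reads numbered 13714772 and 7740389 for RAD21 and 12602155 and 6929293 for IgG in ESCs and EBs. Gene expression was not analysed here, so that the blood or endothelial content of the EBs could not be checked with markers.

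Blood and endothelium arise together from Kdr-positive mesoderm. Etv2, an ETS factor, starts the programme, and Tal1, Lmo2, Gata2 and Runx1 form the transcription factor network of hemogenic endothelium and blood stem cells. Kdr, Tek and Aplnr are receptors for VEGF, angiopoietins and apelin, while Pecam1 and Cdh5 (VE-cadherin) hold endothelial cells together. Cohesin is found at CTCF sites, where it anchors chromatin loops, and also at enhancers and promoters that lack CTCF.

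The sequences around the summits of 13 sites on which the results turn are printed here from the mm9 reference, plus strand, 5′ to 3′. Capitals in the first 9 mark the best match to a 20 base CTCF weight matrix. At the Kdr, Etv2, Gata2 23.8 kb and Lmo2 24.5 kb and 92.1 kb sites the match passed a threshold that 1e-05 of random genome positions pass. At the Aplnr and Lmo2 85.9 kb sites and at the Gata2 sites 4.26 kb and 42.3 kb upstream it passed only the threshold for 1e-04. In the Gata2 69.7 kb sequence capitals mark an ETS word (GGAAGT, here on the minus strand) and a RUNX word (TGTGGT). The last 3 sequences held no CTCF match at either threshold, and capitals there mark nothing.
Aplnr, 12.9 kb upstream, chr2:84963521-84963708: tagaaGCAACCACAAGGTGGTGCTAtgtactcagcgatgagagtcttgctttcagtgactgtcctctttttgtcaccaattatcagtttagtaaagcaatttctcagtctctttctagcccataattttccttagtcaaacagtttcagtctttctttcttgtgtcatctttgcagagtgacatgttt
Gata2, 4.26 kb upstream, chr6:88139549-88139699: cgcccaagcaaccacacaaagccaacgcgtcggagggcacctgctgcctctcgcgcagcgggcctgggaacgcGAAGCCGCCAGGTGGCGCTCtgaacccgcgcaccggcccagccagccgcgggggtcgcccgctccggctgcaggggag
Gata2, 42.3 kb upstream, chr6:88101513-88101697: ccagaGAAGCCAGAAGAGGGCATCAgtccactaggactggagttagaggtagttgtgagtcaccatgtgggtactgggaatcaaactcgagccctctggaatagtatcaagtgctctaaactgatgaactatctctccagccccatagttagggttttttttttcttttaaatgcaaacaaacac
Gata2, 23.8 kb downstream, chr6:88167623-88167773: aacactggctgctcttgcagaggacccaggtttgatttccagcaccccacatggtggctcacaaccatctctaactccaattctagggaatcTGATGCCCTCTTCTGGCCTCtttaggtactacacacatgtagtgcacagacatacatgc
Lmo2, 92.1 kb upstream, chr2:103705987-103706171: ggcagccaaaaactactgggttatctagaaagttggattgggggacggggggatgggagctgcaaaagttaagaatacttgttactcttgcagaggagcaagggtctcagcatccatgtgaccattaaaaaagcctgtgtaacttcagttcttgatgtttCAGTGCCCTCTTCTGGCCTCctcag
Lmo2, 85.9 kb upstream, chr2:103712190-103712340: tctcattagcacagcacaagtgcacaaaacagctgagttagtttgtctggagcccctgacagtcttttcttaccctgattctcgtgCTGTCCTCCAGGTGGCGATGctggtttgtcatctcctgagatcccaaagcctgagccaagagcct
Lmo2, 24.5 kb downstream, chr2:103822566-103822719: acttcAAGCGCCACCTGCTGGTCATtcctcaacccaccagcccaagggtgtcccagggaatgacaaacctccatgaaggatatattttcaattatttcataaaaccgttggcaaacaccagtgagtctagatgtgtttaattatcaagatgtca
Kdr, 125.1 kb downstream, chr5:76249267-76249430: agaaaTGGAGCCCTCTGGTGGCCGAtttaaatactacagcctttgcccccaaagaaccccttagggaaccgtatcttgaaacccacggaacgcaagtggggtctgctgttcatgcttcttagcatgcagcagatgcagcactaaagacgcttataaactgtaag
Etv2, 28.2 kb downstream, chr7:31393006-31393156: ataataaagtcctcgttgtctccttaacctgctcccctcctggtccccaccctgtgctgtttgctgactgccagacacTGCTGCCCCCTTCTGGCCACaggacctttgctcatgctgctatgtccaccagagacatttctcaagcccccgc
Gata2, 69.7 kb upstream, chr6:88074125-88074275: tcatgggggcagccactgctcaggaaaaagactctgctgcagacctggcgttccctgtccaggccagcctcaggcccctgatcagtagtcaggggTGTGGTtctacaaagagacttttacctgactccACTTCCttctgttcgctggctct
Runx1, 115.4 kb downstream, chr16:92710843-92710993: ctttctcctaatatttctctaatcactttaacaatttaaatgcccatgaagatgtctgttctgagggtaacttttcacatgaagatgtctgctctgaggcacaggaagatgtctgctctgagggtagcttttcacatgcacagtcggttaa
Tek, 69.3 kb upstream, chr4:94336595-94336745: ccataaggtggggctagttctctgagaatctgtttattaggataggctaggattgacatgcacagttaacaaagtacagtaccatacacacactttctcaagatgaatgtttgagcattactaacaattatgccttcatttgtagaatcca
Tek, 8.40 kb downstream, chr4:94414302-94414452: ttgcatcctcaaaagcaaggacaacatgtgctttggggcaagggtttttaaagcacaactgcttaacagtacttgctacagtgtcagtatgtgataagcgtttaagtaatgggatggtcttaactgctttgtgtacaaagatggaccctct

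Distances are from the summit to the first annotated start of the gene, in the direction of transcription. All of the genes had an ESC site within 100 kb, against 82.3% of all protein-coding genes, and 9 of the 10 had an EB site, against 73.6%. The exception was Gata2, which had 6 sites in the ESC list and 0 in the EB list. Of the member ESC sites 54.5% were shared with EBs, against 48.5% of the whole ESC list, and of the member EB sites 72.0% were shared with ESCs, against 67.8% of the whole EB list. Most of the sites lay outside the genes whose names they carry here: 25 were between genes, 14 in introns and 1 in a UTR exon, and only 6 were inside the member gene itself. For 18 of the 40 sites the nearest coding start was that of the member, and only 1 site, at Runx1, lay within 1 kb of an annotated start of its gene.

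RAD21 reads were counted within 250 bp of each summit and compared after scaling by the autosomal reads of the library, as RPM. A site was called 2-fold higher on the ratio after 1 read was added to each count, while the ratios quoted for single sites are of the counts themselves, with exact 95% intervals that cover counting error only. In EBs 6 of the 40 sites were 2-fold or more higher (15.0%, against 19.6% of all autosomal sites), and in ESCs 12 were (30.0%, against 23.4%). The exact intervals of both shares contain the share of all sites, but such intervals take sites as independent. Here 6 of the 12 sites higher in ESCs were those of Gata2, so the shares are a description with no test. On the log2 scale the EB over ESC ratio had a median of 0.02 (−0.53 to 0.45) at the member sites and 0.04 at all sites. Of the 18 shared sites 0 were 2-fold higher in ESCs (0.793% of all shared autosomal sites) and 2, near Tek and Aplnr, were 2-fold higher in EBs (11.1%, against 14.5%). At gene level, 4 of the 10 had a site 2-fold higher in EBs (32.5% of all coding genes) and 5 had a site 2-fold higher in ESCs (42.9%). Aplnr, included because of its EB site, is among the 4 genes. That site is also among the 6 sites and the 2 shared sites higher in EBs, so these counts were in part set by the choice of genes. These shares stood near the background, and the account therefore goes gene by gene.

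**Figure D1:**
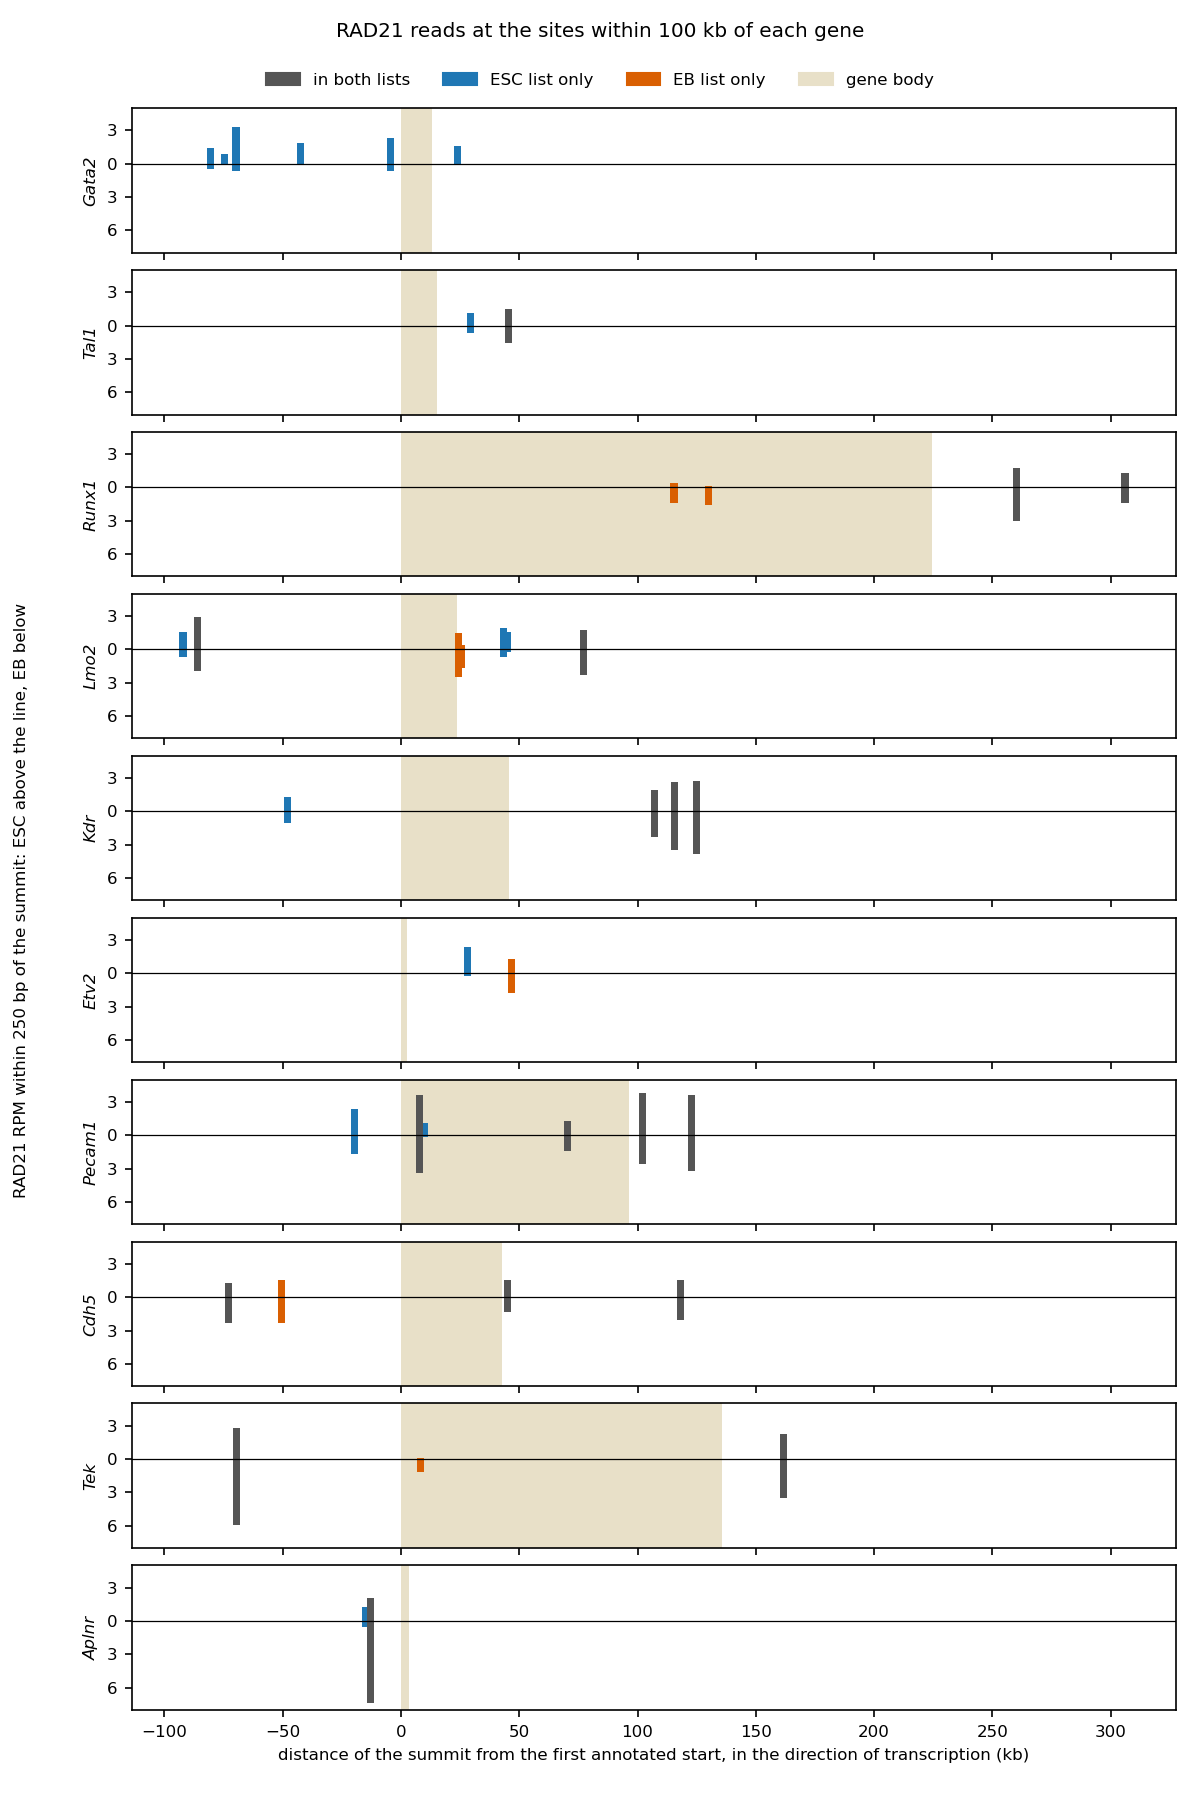
RAD21 RPM within 250 bp of the summit for the 40 sites, drawn upwards for ESCs and downwards for EBs, against the distance from the first start of each gene in kb. Colours give the list in which a site was deposited, and shading the gene body. Gata2 has only blue (ESC list) sites, and the longest bar, 7.36 RPM in EBs, lies 12.9 kb upstream of Aplnr.

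Gata2 encodes a zinc finger factor of blood stem cells and early endothelium, and its surroundings had the largest deficit of EB reads in the set. Summed over its 6 sites there were 154 ESC and 16 EB RAD21 reads, a ratio of 0.184 (0.103 to 0.309), with 13 and 6 IgG reads. All 6 sites were 2-fold or more higher in ESCs, and no EB count exceeded 5, the 95th percentile of random windows. The tallest site lay 69.7 kb upstream between Rpn1 and Gata2 (chr6:88073221-88074738), with 45 ESC and 5 EB RAD21 reads and 2 and 1 IgG reads, 5.08-fold higher in ESCs (2.02 to 16.4). It had no CTCF match at either threshold. The site nearest the first start, 4.26 kb upstream (chr6:88139140-88140144), had 31 ESC and 5 EB reads with 1 IgG read in each, 3.50-fold higher in ESCs (1.35 to 11.5). It was the most GC-rich of the 40 sites at 66.8%, and its CTCF match scored 10.58 bits, just under the limit of 10.98.

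The site 42.3 kb upstream had 25 ESC reads against 1 in EBs, with 5 and 2 IgG reads, and was 14.1-fold higher in ESCs (2.31 to 579). Beyond the gene, 23.8 kb from its start and 4564 bp from that of Dnajb8, a site had 22 ESC reads and 0 EB reads with 1 and 0 IgG reads. Against the 3 reads that a count of 0 allows, this was at least 4.14-fold higher in ESCs, and the exact lower limit of the ratio was 3.09. At the site 74.5 kb upstream there were 12 ESC reads against 1 in EBs, with 3 and 1 IgG reads (6.77-fold, 1.00 to 290). The last site, 80.5 kb upstream, had 19 and 4 reads with an interval that contained equality (0.891 to 10.8). At the downstream promoter of Gata2, 4773 bp inside the gene, there were 15 ESC reads and 1 EB read within 1 kb. IgG reads there numbered 3 and 1. The RAD21 ratio was 0.118 (0.00281 to 0.768). This interval contains 0.529, the RAD21 ratio of the gene body and 100 kb on each side, so the promoter could not be told from its region. The first start went the other way, with 7 ESC and 8 EB reads (2.03, 0.642 to 6.56).

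The IgG reads of the same region moved with this result. Over the gene body and 100 kb on each side, IgG reads numbered 1447 in ESCs and 424 in EBs, a scaled ratio of 0.533 (0.477 to 0.594), and RAD21 reads 1795 and 536, a ratio of 0.529. The IgG ratio of the Gata2 region was lower than in all but 0.413% of the coding genes, whose median was 0.882. On chromosome 6 as a whole the IgG ratio was 0.839. Relative to the IgG reads of its region, the summed site ratio was 0.345 in place of 0.184. Every site was also scaled by the IgG reads within 100 kb, a choice made after seeing the data. In this setting 4 of the 6 Gata2 sites remained 2-fold higher in ESCs, and those 4.26 and 80.5 kb upstream did not. No interval was taken for these scaled ratios, and 1 of the 4, 74.5 kb upstream, rested on 12 ESC reads and 1 EB read. The region also had the highest GC content of the 10, at 50.0%, and when sites were scaled by GC class 5 of the 6 remained. The part of these regional differences in the absence of Gata2 sites from the EB list was not tested. Having 5 or more ESC-only sites and no EB site, a criterion also set after seeing the values, was met by Gata2 alone among the 10 genes and by 0.532% of all coding genes.

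**Figure D2:**
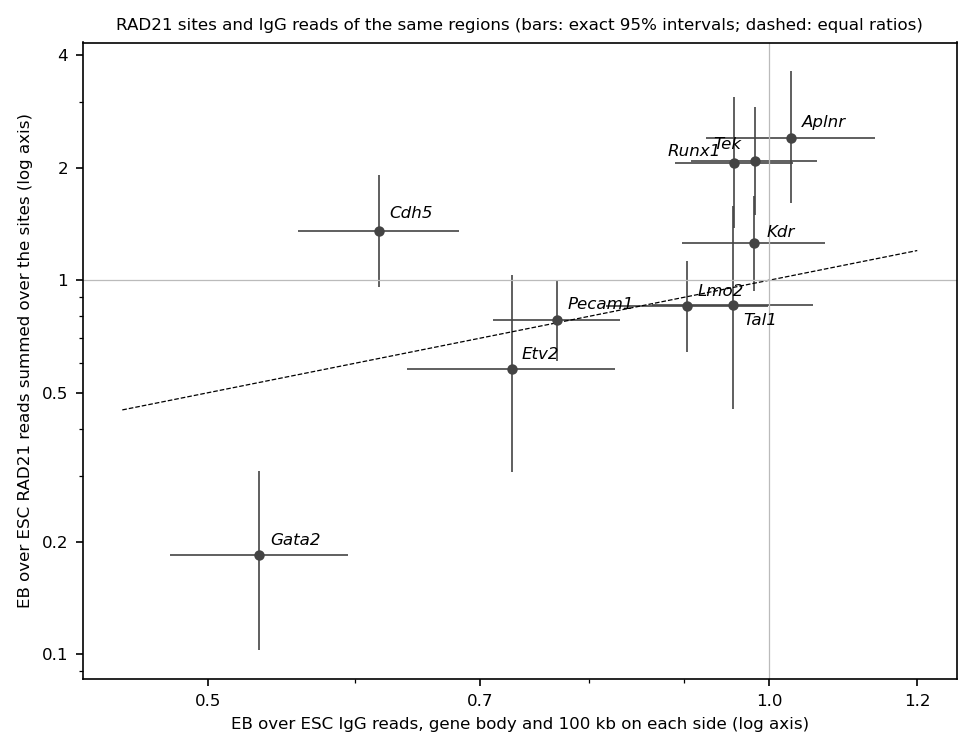
EB over ESC RAD21 reads summed over the sites of each gene (vertical, log axis) against EB over ESC IgG reads of the gene body and 100 kb on each side (horizontal, log axis), with exact 95% intervals and a dashed line of equal ratios. Gata2 lies at the lower left with 0.533 for IgG and 0.184 for the sites, Cdh5 lies above the line with an IgG ratio of 0.618, and Runx1, Tek and Aplnr lie above it with IgG ratios from 0.957 to 1.03.

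Aplnr encodes the apelin receptor of angioblasts and veins. The site upstream of it (chr2:84962794-84964732) ranked 1 in the EB list with a score of 812, and 3079 in the ESC list with 161.4. Around its summit there were 28 ESC and 57 EB RAD21 reads, against 4 and 2 IgG reads. The EB count was 3.61-fold higher (2.26 to 5.89) and ranked 45 among all autosomal sites, while the ESC count ranked 4539. The deposited site was wide, and a shoulder of reads lay downstream of the summit in both cell types. No CTCF match passed 1e-05, and the best one scored 1.62 bits. A smaller ESC-only site 15.1 kb upstream had 17 ESC and 4 EB reads with 4 IgG reads in each (2.40-fold higher in ESCs, 0.782 to 9.80, with the 2-fold call lost in a 500 bp window or with scaling by GC class), so that the 2 neighbouring sites had ratios on opposite sides of 1. The IgG ratio of the region was 1.03 (0.925 to 1.14). At the Aplnr start itself there were 14 ESC and 9 EB reads with 10 and 6 IgG reads, and the intervals of both ratios of RAD21 to IgG contained 1 (0.531 to 3.24 in ESCs, 0.427 to 4.59 in EBs).

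Runx1, required for the first blood stem cells, had sites inside the gene only in the EB list. It has a distal and a proximal promoter, and more than 1 start is annotated around the proximal one. The EB-only site chr16:92695980-92696696 covered the start at 92696255, 130056 bp from the first, with its summit 170 bp upstream in a UTR exon. It had 2 ESC and 12 EB reads with 2 IgG reads in each, 10.6-fold higher in EBs (2.37 to 97.8). Within 1 kb of that start there were 10 ESC and 26 EB RAD21 reads and 4 and 5 IgG reads, 4.61-fold higher in EBs (2.15 to 10.7). Around the neighbouring start at 92695895 there were 9 and 26 RAD21 reads (5.12, 2.32 to 12.4). Around the one at 92697573 there were 14 and 16 (2.03, 0.926 to 4.48), an interval that contains 1. These windows overlap. The other EB-only site (chr16:92710537-92711099) lay in an intron 13345 bp before the annotated start at 92697573, the nearest one, with 5 ESC and 11 EB reads and 2 and 0 IgG reads, 3.90-fold higher in EBs (1.25 to 14.3). Neither of these EB-only sites had a CTCF match at either threshold. Both shared sites, past the 3′ end of the gene, had one. The stronger of them, 260.1 kb from the first start, had 24 ESC and 23 EB reads with 4 IgG reads in each (1.70, 0.916 to 3.14). It passed 2-fold only with scaling by GC class (log2 ratio of 1.27). The other shared site, in an intron of Clic6, had 18 and 11 reads with 2 and 1 IgG reads (1.08, 0.462 to 2.42). At the distal promoter, the first annotated start, there were 9 ESC and 10 EB RAD21 reads against 8 and 2 IgG reads.

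Tek encodes the angiopoietin receptor TIE2. An EB-only site in its own intron, 8.40 kb from the start (chr4:94414248-94414786), had 1 ESC read and 9 EB reads with 4 IgG reads and 1, a ratio of 15.9 with a wide interval (2.21 to 699). The shared site 69.3 kb upstream, in an intron of Ift74 (chr4:94336133-94336995), had 38 ESC and 46 EB reads, 2.15-fold higher in EBs (1.37 to 3.39). The 2-fold call was lost with scaling by GC class (log2 ratio of 0.61) or to shared sites (0.70). Its IgG reads, 9 and 6, were above the 95th percentile of random windows (7 and 4), and it was the most AT-rich of the 40 sites, with a GC content of 35.6%. Neither of the 2 sites had a CTCF match. The shared site past the 3′ end, 161.5 kb from the start, had a match of 22.3 bits and 31 ESC and 27 EB reads with 7 and 2 IgG reads (1.54, 0.886 to 2.67).

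**Figure D3:**
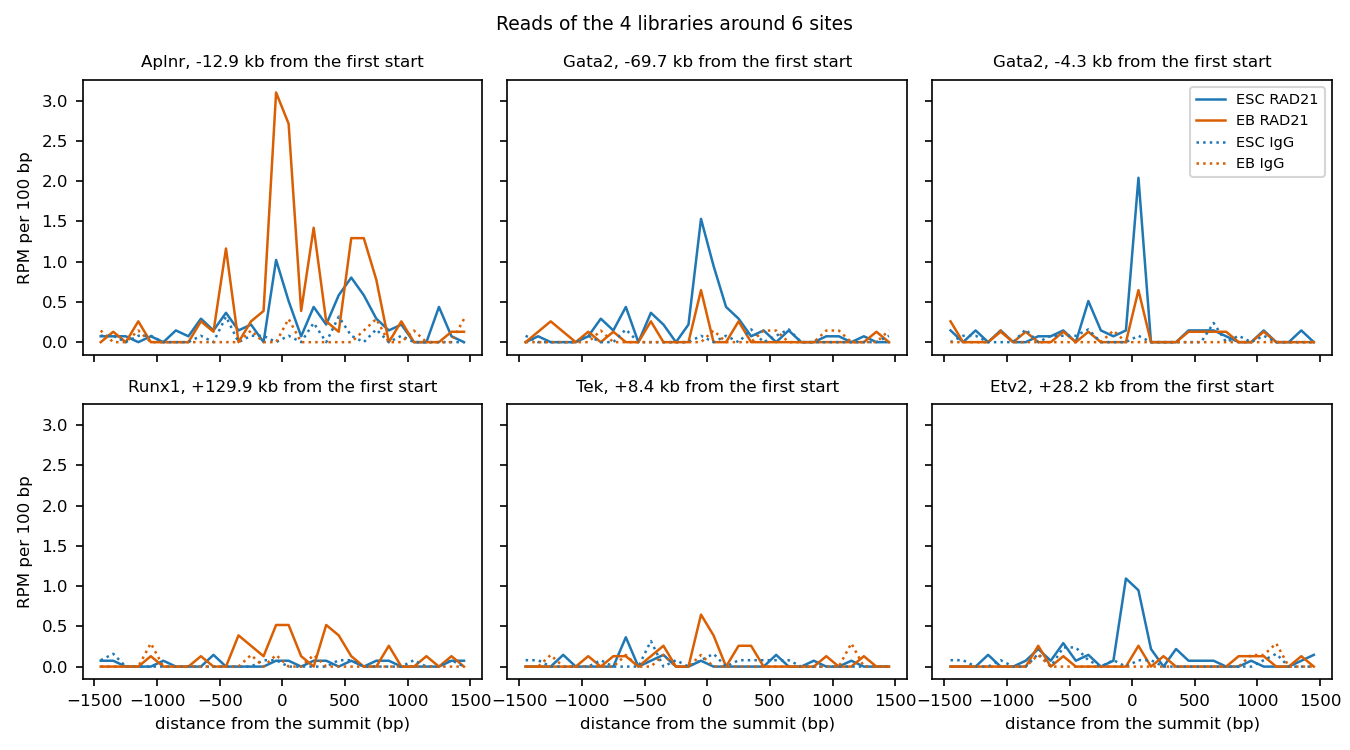
RPM per 100 bp in the 4 libraries against the distance from the summit in bp at 6 sites, with RAD21 as solid and IgG as dotted lines, blue for ESCs and orange for EBs. The orange line is the higher one at the Aplnr, Runx1 and Tek sites, and the blue one at both Gata2 sites and at the Etv2 site.

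Lmo2, the adaptor that joins Tal1 to Gata factors, had 7 sites of which 5 were in the ESC and 4 in the EB list, and here ESC-only and EB-only sites lay on the same side of the gene. A pair of EB-only sites lay just past its 3′ end in an intron of the overlapping gene 4931422A03Rik. The first (chr2:103821911-103822881) had 20 ESC and 19 EB reads with 6 and 4 IgG reads, so that its EB-only listing went with a ratio of only 1.68 (0.850 to 3.32). It passed 2-fold only when reads were not shifted (log2 ratio of 1.07), and it held a CTCF match of 21.5 bits. The second (chr2:103823590-103824202) had 6 ESC and 13 EB reads with 1 IgG read in each, 3.84-fold higher in EBs (1.36 to 12.3), and no match. Further into the same intron were ESC-only sites. One, 43.3 kb from the start, had 26 ESC and 5 EB reads with 2 and 0 IgG reads (2.93-fold higher in ESCs, 1.11 to 9.79). The next, 44.9 kb from the start, had 22 and 2 reads with 3 and 0 IgG reads (6.21-fold, 1.53 to 54.5).

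On the upstream side of Lmo2, the shared site 85.9 kb away had the most ESC reads of the locus, 40, with 15 EB reads and 4 and 0 IgG reads (0.664, 0.341 to 1.23). An ESC-only site 92.1 kb away had 22 and 5 reads with 3 and 1 IgG reads (2.48-fold higher in ESCs, 0.918 to 8.39, with the call lost under scaling by GC class or by IgG reads within 100 kb). The shared site 77.1 kb downstream, in an intron of Fbxo3, had 24 and 18 reads (1.33, 0.680 to 2.55). Summed over the 7 sites, Lmo2 had 160 ESC and 77 EB reads, a ratio of 0.853 (0.641 to 1.13), with 2-fold differences in both directions among them.

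Etv2 had a single site in each list and neither was shared. The ESC-only site, 28.2 kb past the start in an intron of Upk1a (chr7:31392630-31393528), had 32 ESC and 2 EB reads with 3 and 0 IgG reads, 9.03-fold higher in ESCs (2.30 to 77.8). It had a CTCF match of 15.9 bits with the summit 13 bp away. The EB-only site, 938 bp from the start of Wbp7, had 17 ESC and 14 EB reads with 3 and 1 IgG reads (1.46, 0.666 to 3.15). This was again an EB-only listing without a 2-fold difference when scaled by autosomal reads. It passed 2-fold only with scaling by GC class (log2 ratio of 1.07). IgG reads over the Etv2 region had a ratio of 0.728 (0.639 to 0.827).

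Tal1, the partner of Lmo2, had few and small sites. The shared one, 45.3 kb downstream, had 20 ESC and 12 EB reads with 4 and 2 IgG reads (1.06, 0.474 to 2.28). The ESC-only one, 29.3 kb downstream and 3025 bp from the start of Pdzk1ip1, had 15 and 5 reads with 0 and 2 IgG reads (1.69-fold higher in ESCs, 0.585 to 5.96). Neither ratio could be told from equality at this depth.

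Kdr encodes the main VEGF receptor of endothelium. Its 3 shared sites lay together between 107.1 and 125.1 kb from the start, beyond its 3′ end, where its own start was still the nearest coding start. Their ratios, farthest first, were 1.44 (0.857 to 2.39), 1.33 (0.776 to 2.25) and 1.23 (0.634 to 2.33), with intervals that all contained 1. The farthest and strongest (chr5:76248807-76249964) had 37 ESC and 30 EB reads with 1 and 2 IgG reads and a CTCF match of 21.2 bits. The middle one had 36 and 27 reads with 0 and 5 IgG reads, and the nearest 26 and 18 with 3 and 1. On the other side, an ESC-only site 48.0 kb upstream had 18 and 8 reads with 2 and 1 IgG reads (1.27-fold higher in ESCs, 0.525 to 3.38), and its EB count was above the 95th percentile of random windows.

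Pecam1 had the most reads in ESCs, 217 over 6 sites against 96 in EBs (0.784, 0.610 to 1.00). At its strongest site, 102.1 kb from the start beyond the gene, there were 52 ESC and 20 EB RAD21 reads and 5 and 2 IgG reads (0.682, 0.385 to 1.16). The site with most EB reads lay in its own intron 7.94 kb from the start (chr11:106603408-106604325), with 50 and 26 RAD21 and 10 and 0 IgG reads (0.921, 0.551 to 1.51). Deeper in the gene, 9.85 kb from the start, an ESC-only intron site had 15 ESC reads and 1 EB read with 1 IgG read in each (8.47-fold higher in ESCs, 1.30 to 356) and no CTCF match. None of the other sites differed 2-fold. Among them, the shared site 122.7 kb away had 50 and 25 reads with 4 IgG reads in each (0.886, 0.525 to 1.46).

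Cdh5 had 3 shared sites and 1 EB-only site, none of them 2-fold different with scaling by autosomal reads. The site nearest its start, 44.9 kb downstream and in both lists, had 21 ESC and 10 EB reads with 2 and 1 IgG reads (0.844, 0.355 to 1.87). The EB-only site, 50.6 kb upstream, had 21 and 18 reads with 7 and 0 IgG reads (1.52, 0.763 to 2.99), and the shared site 72.8 kb upstream 18 and 18 with 3 and 1 (1.77, 0.870 to 3.61). The shared site 118.3 kb downstream had 21 and 16 reads with 3 and 1 IgG reads (1.35, 0.659 to 2.72). IgG reads over this region were also low in EBs, with a ratio of 0.618 (0.559 to 0.682) that was below all but 2.48% of coding genes, while the sites summed to a ratio of 1.36 (0.958 to 1.91), or 2.20 relative to the IgG reads of the region. Scaled by IgG reads within 100 kb, 3 of the 4 sites were 2-fold higher in EBs, by GC class 2, and by chromosome or after IgG subtraction 1. The part of the regional IgG difference in these ratios was not tested.

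**Figure D4:**
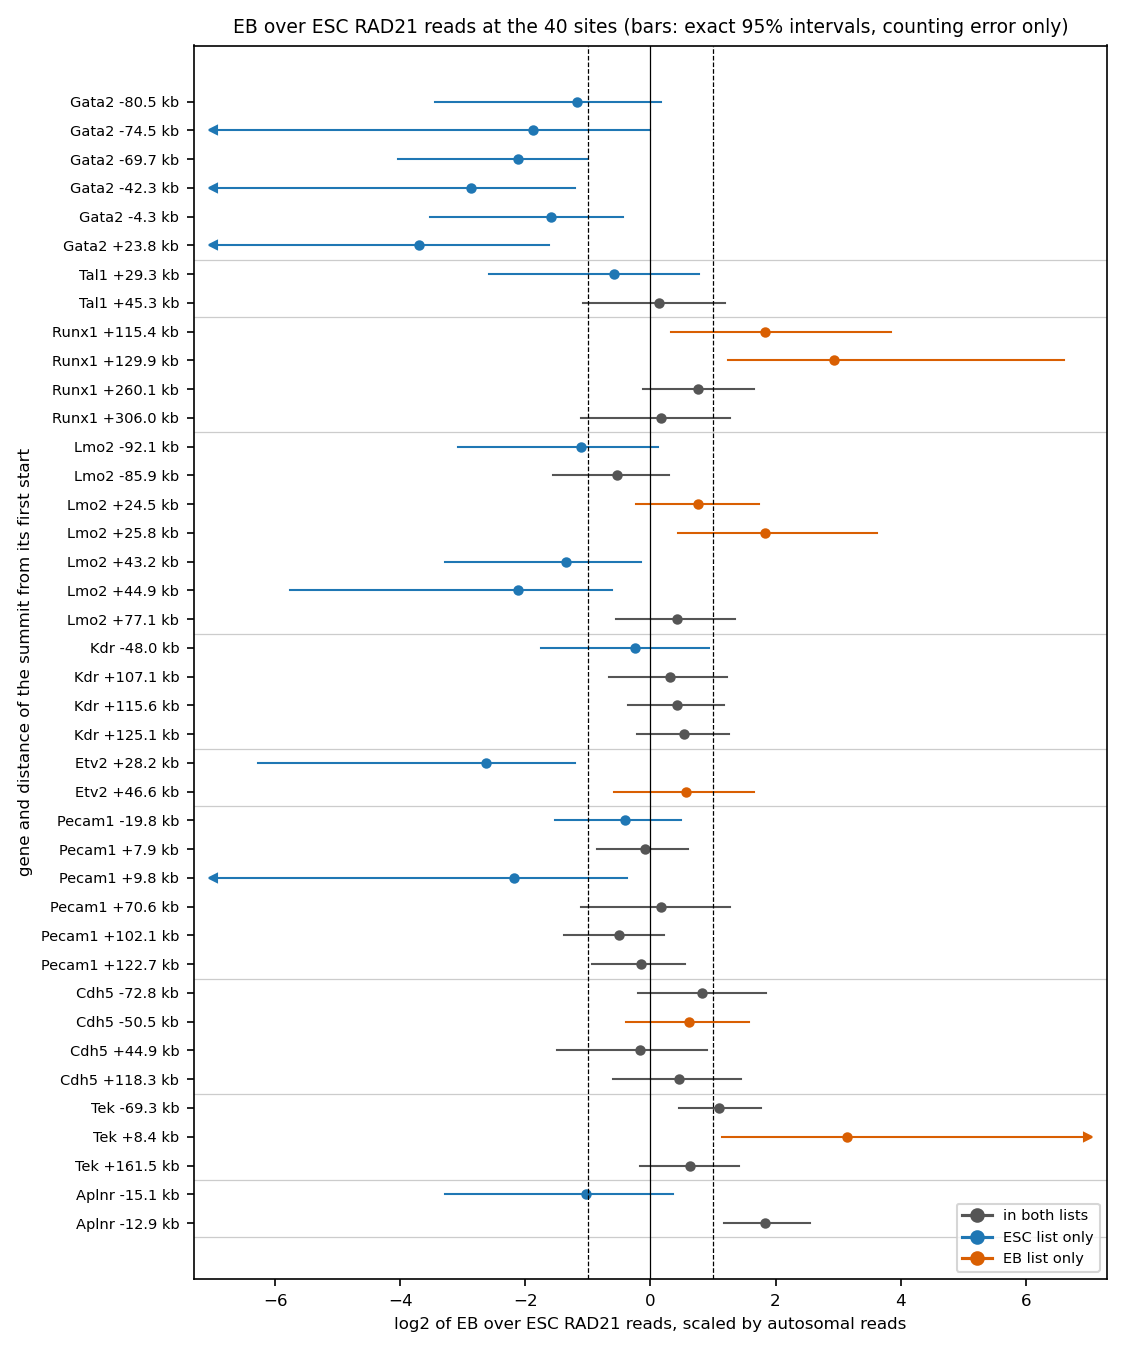
The EB over ESC ratio of RAD21 reads on the log2 scale, after 1 read was added (points), with the exact 95% interval of the ratio of the counts (bars, counting error only, arrows where they leave the plot) for the 40 sites, by gene and by distance from the first start. Dashed lines mark 2-fold differences. Only 6 intervals lie wholly above and 9 wholly below equality.

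Of the 15 ESC-only sites 12 were 2-fold higher in ESCs (80.0%, 51.9 to 95.7, against 55.0% of all ESC-only autosomal sites), and 2 had EB reads above the 95th percentile of random windows, against 44.5% of all. Of the 7 EB-only sites 4 were 2-fold higher in EBs (57.1%, 18.4 to 90.1, against 75.1% of all EB-only autosomal sites) and 3 had ESC reads above that level, against 64.8% of all. The same reads decided the listing, so that these counts are a description. Since 6 of the 15 ESC-only sites were those of Gata2, these counts are not independent of each other.

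Sequence was not used to choose the sites. A CTCF match at the 1e-05 rate lay within 150 bp of the summit at 19 of the 40 sites (47.5%), against 45.3% of all autosomal sites and 0.284% of random windows. At the 1e-04 rate it did so at 30 (75.0%), against 73.8% and 2.76%. The matches were spread over 9 of the 10 genes, all but Aplnr, at 9 shared, 8 ESC-only and 2 EB-only sites. These were 50.0%, 53.3% and 28.6% of the sites of each list class, against 54.8%, 42.2% and 31.7% over all autosomal sites. Read along the strand on which the motif matched (consensus of the matrix from odd-numbered chromosomes TTGGCCACCAGAGGGCAGTA), the summit lay on its 3′ side at 14 of the 19 and at 78.1% of all autosomal sites with a match. The median distance to that side was 53 bp at the 19 and 46 bp at all. The 4 EB-only sites that were 2-fold higher in EBs, 2 at Runx1 and 1 each at Lmo2 and Tek, had no match at either rate. Over all EB-only autosomal sites, 2-fold higher or not, a match was present at 31.7% and 55.4% at the 2 rates. The share among those that were 2-fold higher was not taken, so the 4 sites have no matched background. Short words that factors of these lineages bind were searched on both strands. The GATA word AGATAA lay at 15.0% of the member sites, against 15.1% of all autosomal sites and 19.2% of random windows. For the ETS word GGAAGT the shares were 12.5%, 17.2% and 16.4%. Windows with the RUNX word TGTGGT were counted together with those that held its other form, the word TGCGGT, and made up 30.0%, 26.7% and 21.7%. Likewise, the E-box CAGCTG was counted together with a further form of the E-box, the word CAGATG, at 27.5%, 35.4% and 30.5%. The SOX word AACAAT was found at 20.0%, 16.2% and 20.6%. Each exact interval at the member sites, which takes sites as independent, contained the share of all sites. These words are not exclusive of each other, and a match or its absence describes the letters of these windows only.

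RAD21 at the first annotated starts was near the IgG level. Within 1 kb, the median ratio of RAD21 to IgG after 1 read was added was 1.15 (0.735 to 1.31) in ESCs, against 1.18 for all coding genes, and 1.46 (0.639 to 2.69) in EBs, against 1.25. In ESCs 0 of the 10 starts reached a ratio of 2 (16.6% of all coding genes). In EBs 3 did (25.7%): Gata2 with 8 RAD21 and 2 IgG reads, Tal1 with 5 and 1, and Runx1 with 10 and 2. Every exact interval of these EB ratios contained 1, and the counts behind them were small. The lowest ratio was that of Etv2 in ESCs, with 3 RAD21 and 11 IgG reads, or 0.251 (0.0449 to 0.949), under all but 0.476% of coding gene starts, whereas in EBs it had 7 and 4. At an internal start of Pecam1, 35234 bp into the gene and outside every site of both lists, there were 32 ESC and 6 EB RAD21 reads. IgG reads there numbered 12 and 7. The RAD21 ratio of EB to ESC was 0.332 (0.114 to 0.806), the lowest among the starts of Pecam1. Neighbouring starts with overlapping windows had ratios from 0.343 to 0.400. The interval contains 0.75, the RAD21 ratio of the gene body and 100 kb on each side.

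**Figure D5:**
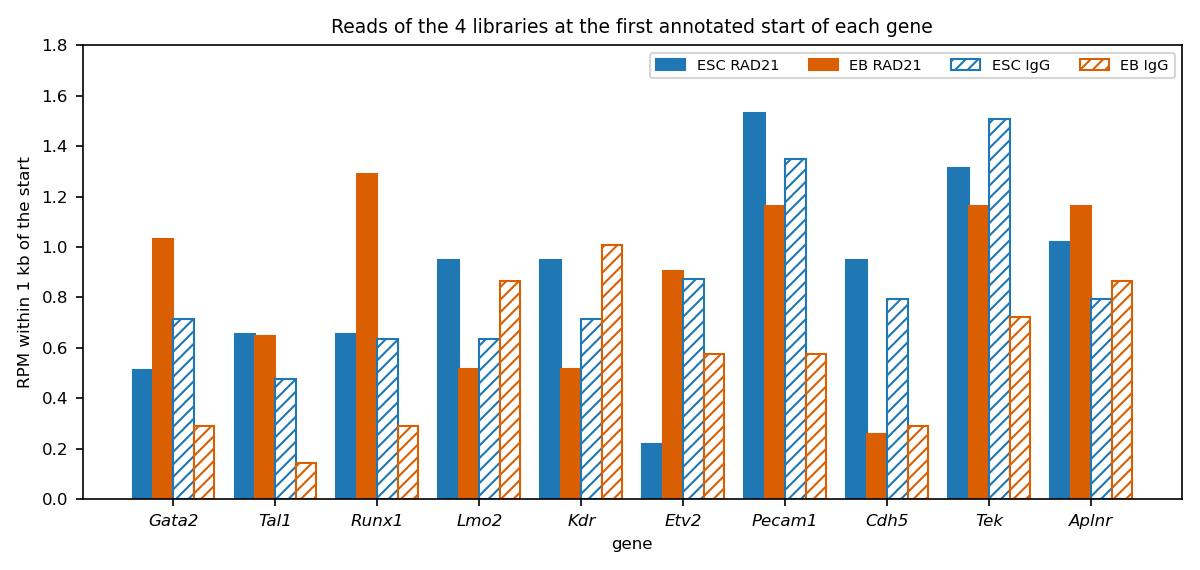
RPM within 1 kb of the first annotated start of each gene in the 4 libraries, with RAD21 as filled and IgG as hatched bars, blue for ESCs and orange for EBs, 1 library per bar. In ESCs the RAD21 bars are close to the IgG bars except at Etv2, where RAD21 is lower, and in EBs the largest excess over IgG is at Runx1 with 1.29 against 0.289 RPM.

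Other genes of the same lineages were listed by their known roles, 40 in all, of which 39 were autosomal. Of these, 36 had an ESC and 37 an EB site within 100 kb, 20 had a site 2-fold higher in EBs and 24 a site 2-fold higher in ESCs, or 92.3%, 94.9%, 51.3% and 61.5% of the 39, against the 82.3%, 73.6%, 32.5% and 42.9% of all coding genes. Their 158 sites, none of which was a site of the 10 genes above, comprised 65 in both lists, 65 ESC-only and 28 EB-only, with 32 2-fold higher in EBs (20.3%, against 19.6% of all autosomal sites), 42 in ESCs (26.6%, against 23.4%) and a median of −0.07 on the log2 scale. None of them had 5 or more ESC-only sites with no EB site. The gene shares above were not matched for the number of sites near a gene. Over all coding genes the medians were 2 ESC sites and 1 EB site. Some neighbouring genes of the list share sites, and the list was made with earlier results of these data known. The gene shares are therefore a description with no test. The highest ratio of EB to ESC was in an intron of Ets1, an ETS factor of endothelium and lymphocytes, with 1 ESC read and 14 EB reads and 3 and 2 IgG reads (24.8, 3.77 to 1049). It was followed by an intron of Cd34, the surface marker of blood stem cells and vessels, with 8 and 25 reads and 3 and 1 IgG reads (5.54, 2.42 to 14.2), and an intron of Meis1 with 4 and 12 reads and 8 and 2 IgG reads (5.32, 1.61 to 22.6). In the other direction, a site 94.1 kb upstream of the VEGF receptor gene Flt1 had 35 reads in ESCs and 0 in EBs (at least 6.58-fold higher in ESCs), one near Gfi1b had 19 and 0 (at least 3.57-fold) and one upstream of Spi1 had 18 and 0 (at least 3.39-fold), each against the 3 reads that a count of 0 allows. The exact lower limits of these ratios were 5.08, 2.63 and 2.48.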

How the data were processed

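The authors sequenced 35 base reads on a Genome Analyzer, aligned them to mm9 and deposited 1 position per line, without normalization, from which read counts were made. No position and strand occurred more than once on the autosomes. The aligner is not given in the sources used here. Peaks were called by the authors with MACS, ESCs and EBs separately and each against its IgG library, and the deposited score is -10 times the log10 of the p-value. The lowest score was 50.01 in both lists, while the study states its p-value limit differently in separate places. The deposited summit signal is the height of piled-up reads and was used only to place summits. The controls are labelled as IgG, although their descriptions also speak of input DNA. The EB IgG reads stopped part of the way along chromosome X (1 broken line) and the ESC IgG reads had 7 broken lines, so only autosomal reads were compared.

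Libraries were grouped by the sample labels, 1 per group, which allows no test between groups. ESC and EB sites that overlapped by at least 1 bp were merged and counted at the summit of the higher score. Reads were moved to the fragment centre (fragment lengths of 204 bp in ESCs and 198 bp in EBs, estimated by cross-correlation), counted within 250 bp of summits and 1 kb of gene starts, and scaled by autosomal reads. Ratios have exact conditional binomial (Clopper-Pearson) intervals at the 95% level, and a count of 0 was taken to allow 3 reads. Both of these cover counting error only. Medians have order-statistic intervals, which reflect the spread between sites or gene starts and take these as independent. Ratios, their intervals and the 2-fold calls were tested on simulated counts, and motif recovery on simulated sequences with a planted motif. The counting of reads itself was not tested in this way. Genes came from GENCODE for mm9, with Spi1 found under its older symbol Sfpi1. The CTCF matrix of width 20 was built from matches to a preset CTCF consensus within 150 bp of the summits of these RAD21 sites. Matches on odd-numbered chromosomes gave the matrix for use on the even-numbered, and the reverse. Thresholds came from 50000 random windows at least 2000 bp from any site. Software was Python 3.11.15, numpy 2.4.6, scipy 1.17.1 and pysam 0.24.0.

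The 10 genes, the list of other lineage genes and the words searched were chosen with earlier results of these data known. All 10 genes are named, with the strongest site in each cell type, the site nearest the start and every site 2-fold different with an interval that excludes 1, and further sites where they complete a locus. Of the other lineage genes only those with the 3 largest ratios in each direction are named. Alternatives concerned the distance and score limits, the overlap that counts as shared, the counting window, scaling, reads added, background subtraction, read shift, depth, motif threshold and start annotation.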

Additional observations from a re-analysis of the deposited data

Results flagged for a closer look

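At 6 of the 10 first annotated starts the RAD21 count was above IgG in one cell type and below it in the other, each after scaling and in single libraries, and these differences were not tested. The EB ratio of RAD21 to IgG was 5.01 times the ESC ratio at Gata2, 6.25 times at Etv2 and 1.85 times at Tek. It was 0.400 times the ESC ratio at Lmo2, 0.386 times at Kdr and 0.749 times at Cdh5. Only the ESC ratio at Etv2 had an interval that excluded 1, and the counts behind the rest were too small to place them above or below IgG.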

How the results depend on the processing

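Of 54 alternative values for 11 results, 47 stayed near the value reported. For counts this means within 1.5 times, and for medians and the Aplnr ratio within their 95% interval. The intervals of the medians reflect the spread between sites or gene starts and not the effect of processing, so this is a wide limit. The median log2 ratio at member sites, whose interval contains 0, was negative in a 500 bp window (−0.17) and with scaling to shared sites (−0.37). With a distance limit of 50 kb the genes had 20 ESC and 15 EB sites, of which 9 were shared in either direction, and with a score of at least 100 they had 19 ESC and 10 EB sites. At the 1e-04 rate 30 sites had a CTCF match. The counts of 2-fold sites moved most with scaling by GC class or, as an alternative added after seeing the data, by IgG reads within 100 kb. Both of these gave 9 sites higher in EBs and 9 higher in ESCs, in place of 6 and 12. The limit of 1.5 times still counts these values as near, although the excess of sites higher in ESCs was gone. Over all sites the shares were 23.1% and 18.6% by GC class and 21.9% and 19.4% by IgG. They moved the median log2 ratio of all sites from 0.04 to 0.27 and 0.20, and that of member sites to 0.37 and 0.31. Scaling to shared sites moved the median of all sites to −0.36, with 5 member sites higher in EBs and 12 in ESCs, against 11.9% and 31.9% of all. The Aplnr ratio ranged from 2.70 to 3.84 over its alternatives. Across GC classes of random windows the log2 of EB over ESC RAD21 reads went from 0.48 to −0.51 from the lowest to the highest class, and 17 of the 40 sites were in the highest. No paired analysis was possible because each group held 1 library. Depth limited most single ratios: at the median of 22 ESC and 12 EB reads per site, a difference short of 2-fold could rarely be told from equality.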

Other observations

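A 9 base word, CTCTTCTGG, recurred inside the CTCF matches of 3 of the printed sequences, all of them ESC-only sites, on one strand or the other. It was chosen after the sequences had been read. It lay within 150 bp of the summit at 3 of the 15 ESC-only sites of the 10 genes (Gata2 42.3 kb upstream, Gata2 23.8 kb downstream and Lmo2 92.1 kb upstream) and at 0 of the 7 EB-only and 0 of the 18 shared sites. Over all autosomal sites it was present at 22.2% of the 7757 ESC-only sites (21.3 to 23.2, exact 95% interval), at 2.40% of the 3419 EB-only sites (1.91 to 2.97) and at 2.90% of the 7312 shared sites (2.53 to 3.31). Random windows held it at 1.72%. The share of the ESC-only sites of the 10 genes, 20.0%, had an interval from 4.33% to 48.1%. No repeat annotation of the build was used here, so that the repeat class of these sequences is not given.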
